A study of Mus musculus with 11 samples.

Results

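A set of 9 genes that are not among the usual names of the choroid plexus was followed in dissected mouse lateral habenula tissue, out of 54532 genes in the count table. The 9 are Tmprss11a, 2900040C04Rik, Npr3, Inmt, Abca4, Rbm47, Wdr86, Pon3 and Large2, and each names 1 row of the table. They were chosen by their fold change in arthritic against control libraries, over both sexes or in females, as genes that fell together with choroid plexus genes. Their levels in arthritic and control libraries are therefore given as a description, with no test. The tests below use 2 measures that did not choose them, which are the change of each gene with transthyretin (Ttr) between libraries of the same group, and the contrast of female and male controls. All mice were BALB/c and 3 months old. The CAIA group (collagen antibody-induced arthritis) received a cocktail of 5 monoclonal antibody clones against type II collagen at 50 mg/kg, and lipopolysaccharide (LPS) at 1 mg/kg 3 days later. Controls received vehicle for both, so the effects of LPS and of arthritis cannot be told apart. There were 3 female CAIA, 3 female control, 3 male CAIA and 2 male control libraries, and the labels do not say whether each came from a different animal. P-values then measure the spread between these libraries only, which may be technical.

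The choroid plexus is a vascular fold of the ventricle wall, covered by a secretory epithelium that makes cerebrospinal fluid, and it lies against the habenula in the third ventricle. Its epithelium makes Ttr, a carrier of thyroid hormone, as one of its most abundant transcripts. In a bulk dissection, the amount of this epithelium that is taken along can differ between samples, and fewer cells of a type and less RNA per cell cannot be told apart. A gene expressed in that epithelium alone would keep a fixed ratio to Ttr in every library if neither its own level per cell nor that of Ttr changed. The ratio alone does not tell a change in the gene from one in Ttr.

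Totals were 25317306 to 29565006 counts per library, and 19619 genes, all 9 included, had enough counts to be tested. The lateral habenula markers Gpr151, Pcdh10 and Slc17a6 were present, with a summed level of 1012 to 1196 CPM (counts scaled to library size) in CAIA and 924 to 1171 CPM in controls. The medial habenula markers summed to 915 to 1200 CPM in CAIA and 846 to 1221 CPM in controls. The 16 choroid plexus epithelium markers, Ttr included, summed to 93.1 to 1465 CPM in CAIA and 1838 to 3977 CPM in controls. Ttr itself was at 29.2, 27 and 29.8 CPM in female CAIA libraries, against 1467, 1994 and 3286 CPM in female controls, and at 65.5, 1187 and 304 CPM in male CAIA libraries, against 2702 and 2574 CPM in male controls. The female CAIA libraries were uniformly low in Ttr, while male CAIA replicate 2 came nearest to the controls. Female CAIA replicate 2 and male CAIA replicate 3 stood apart in markers of neighbouring structures. Their pineal markers summed to 49.5 and 53.5 CPM, against 13.3 to 27.1 CPM in the other 9 libraries, and their ependyma and subcommissural organ markers to 228 and 206 CPM, against 68.1 to 116 CPM.

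The genes differ in where their products act, and promoter sequence is shown for 4 of them, which are the pair whose mean ratio to Ttr differed least between CAIA and controls and the pair whose window holds a homeodomain motif. RefSeq (GRCm38.p6) windows from 250 bases before to 50 bases after a gene's start matched 8 of the 9 genes in 10 windows. The motif searched was TAATCC and its reverse complement GGATTA, the core that OTX2, a factor of choroid plexus development, shares with other homeodomain proteins of its class. It was found in 2 of the 10 windows, those of Abca4 and Rbm47, and in 7.06% of all 32851 windows of the table. In Abca4 it began 58 bases before the start and in Rbm47 220 bases before it. A match describes these letters and not a bound site, and the absence of one says only that the letters are not in that window. In the sequences below, read 5′ to 3′ on the gene's strand, capitals mark the motif.
Abca4, chr3:122044210-122044509, plus strand: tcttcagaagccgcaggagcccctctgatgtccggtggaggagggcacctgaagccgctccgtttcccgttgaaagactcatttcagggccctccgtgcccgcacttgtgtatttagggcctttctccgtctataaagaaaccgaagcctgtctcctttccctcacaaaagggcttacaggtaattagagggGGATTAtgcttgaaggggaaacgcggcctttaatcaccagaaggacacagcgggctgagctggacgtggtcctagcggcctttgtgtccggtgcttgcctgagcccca
Rbm47, chr5:66151905-66152204, minus strand: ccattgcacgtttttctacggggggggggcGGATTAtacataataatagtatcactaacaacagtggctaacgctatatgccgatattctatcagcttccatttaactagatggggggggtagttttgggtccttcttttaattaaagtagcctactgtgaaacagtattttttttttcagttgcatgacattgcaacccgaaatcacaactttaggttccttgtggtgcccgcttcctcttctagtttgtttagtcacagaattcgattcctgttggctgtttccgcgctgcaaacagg
Tmprss11a, chr5:86468941-86469240, minus strand: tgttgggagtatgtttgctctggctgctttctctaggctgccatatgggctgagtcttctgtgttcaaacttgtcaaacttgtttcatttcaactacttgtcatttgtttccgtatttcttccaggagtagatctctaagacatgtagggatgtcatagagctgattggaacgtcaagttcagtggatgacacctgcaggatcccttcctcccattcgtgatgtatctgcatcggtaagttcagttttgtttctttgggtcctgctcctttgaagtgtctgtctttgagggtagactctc
2900040C04Rik, chr14:76251212-76251511, plus strand: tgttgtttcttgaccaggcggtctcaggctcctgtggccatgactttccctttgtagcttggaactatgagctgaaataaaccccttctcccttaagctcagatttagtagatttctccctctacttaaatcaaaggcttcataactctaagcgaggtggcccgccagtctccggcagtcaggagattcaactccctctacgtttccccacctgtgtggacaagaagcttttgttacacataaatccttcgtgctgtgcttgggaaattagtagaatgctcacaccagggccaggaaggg
The Tmprss11a and 2900040C04Rik windows hold no capitals, since neither contains the motif. The other windows of Rbm47, and those of Npr3, Inmt, Wdr86 and Pon3, hold none either.

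In control libraries the 9 genes were all far below Ttr. Per kilobase of exon, Ttr averaged 2028 ± 587 RPKM (CPM divided by exon length in kilobases; SD, n = 5 control libraries), and the highest of the 9, the non-coding RNA 2900040C04Rik, averaged 5.12 ± 0.46 RPKM. Abca4 and Wdr86 followed at 1.91 ± 0.52 and 1.81 ± 0.51 RPKM, which do not differ beyond their spread. Pon3 at 1.25 ± 0.33 RPKM, Inmt at 1.18 ± 0.46 and Npr3 at 0.992 ± 0.252 overlapped one another. Rbm47 was at 0.638 ± 0.196 RPKM. Tmprss11a at 0.374 ± 0.079 and Large2 at 0.374 ± 0.063 RPKM were the lowest and could not be ordered.

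Every member was lower in CAIA in both sexes by fitted fold change. The 9 genes are all among the 113 called lower over both sexes, which is 0.576% of the genes tested, and 7 of the 9 are among those called lower in females, which is 0.255%. Over both sexes 4 genes were called higher (0.0204%), none of them a member or a relative. Of the 16 choroid plexus markers edgeR called 7 lower over both sexes and 1 in females, and DESeq2 called 15 in each. Ttr itself did not pass in edgeR (adjusted p = 0.062 over both sexes and 0.111 in females). In males edgeR called 0 genes lower (0%) and DESeq2 33. Of the 9, none was called in males by edgeR, all 9 had an unadjusted p under 0.05 (2.5% of all genes were lower at that level), and DESeq2 called 3. For 8 of the 9, every CAIA library was below every control library, which holds for 1.01% of all genes, and these contrasts chose the genes, so nothing is read from the counts. The median log2 fold change of the 9 was -2.34 over both sexes, beside 0.00 for all genes tested and -2.78 for the 16 choroid plexus markers. The members' median was -2.97 in females and -1.73 in males, and the difference between the sexes was not tested.

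Among products at the cell surface, the membrane-anchored serine protease gene Tmprss11a was at 0, 0 and 0.0686 CPM in the 3 female CAIA libraries, against 1.59, 1.84 and 2.28 CPM in the 3 female control libraries. The 3 male CAIA libraries held 0.0789, 1.26 and 0.359 CPM, against 2.18 and 2.78 CPM in the 2 male control libraries. The 2 CAIA groups had no library as high as a control, and male CAIA replicate 2 was the highest of them. Summed over libraries, the female CAIA level was 1.21% of the female control level (95% counting interval 0.145% to 4.44%), on 2 counts against 155. In males the log2 fold change was -2.13 ± 0.63 (SE). Ttr was kept at 1.25% (1.20% to 1.30%) by the same measure. Tmprss11a lies on chromosome 5 (86410410 to 86468990, GRCm38, minus strand). Of its relatives in the same gene family, Tmprss11b had 4 counts over all 11 libraries, Tmprss11d had 3, and Tmprss11c, Tmprss11e, Tmprss11f and Tmprss11g had 0.

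Npr3, the receptor that clears natriuretic peptides without making cyclic GMP, was at 0.782, 0.558 and 0.686 CPM in the 3 female CAIA libraries, against 8.16, 9.58 and 13.2 CPM in the 3 female control libraries. Male CAIA libraries gave 0.67, 4.67 and 1.72 CPM, against 7.07 and 8.53 CPM in male controls. The female CAIA libraries kept 6.45% of the control level (counting interval 4.86% to 8.42%). Among male CAIA libraries, replicate 1 was as low as the female CAIA libraries and replicate 2 was highest. The log2 fold change was -3.93 ± 0.57 (SE) in females and -1.73 ± 0.54 in males. Npr3 lies on chromosome 15 (11839896 to 11907287, minus strand), where 321 bases of its exons, 3.42% of them, overlap a bidirectional promoter transcript with 8 counts in all.

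Abca4, a lipid transporter known from photoreceptors, where it moves retinoid adducts across disc membranes, was at 2.35, 4.01 and 2.4 CPM in the 3 female CAIA libraries, against 15.7, 23.9 and 32.6 CPM in the 3 female control libraries. In males it was at 2.41, 11.3 and 6.86 CPM in the 3 CAIA libraries, against 19.6 and 22.8 CPM in the 2 control libraries. The groups did not overlap, and female CAIA replicate 2 stood above the other 2 female CAIA libraries. That library and male CAIA replicate 3 are those with high pineal markers, which mark a gland that shares genes with photoreceptors, and the part of the pineal signal in the Abca4 level was not tested between groups. The female CAIA libraries kept 11.9% of the control level (10.4% to 13.6%). The log2 fold change was -3.05 ± 0.53 in females and -1.63 ± 0.54 in males. Abca4 lies on chromosome 3 (122044443 to 122180123, plus strand).

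Of the enzymes, Inmt, which methylates indoleamines such as tryptamine, was at 0.213, 0.279 and 0.206 CPM in the 3 female CAIA libraries, against 1.44, 1.1 and 2.99 CPM in the 3 female control libraries. The 3 male CAIA libraries held 0.197, 0.588 and 0.539 CPM, against 2.22 and 1.66 CPM in the 2 male control libraries. Counts were low, with 20 in the female CAIA libraries together and 153 in female controls. The share kept was 12.3% (7.28% to 19.6%), and the log2 fold change was -2.97 ± 0.47 in females and -2.12 ± 0.47 in males. Inmt lies on chromosome 6 (55170626 to 55175043, minus strand), 161388 bases from the start of the water channel gene Aqp1, with 3 annotated genes between them. Aqp1 is one of the choroid plexus markers.

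Pon3, a lactonase of the paraoxonase family that the liver releases on lipoproteins, was at 1.21, 1.19 and 1.2 CPM in the 3 female CAIA libraries, against 3.62, 4.04 and 5.96 CPM in the 3 female control libraries. Male CAIA libraries gave 1.46, 1.84 and 1.58 CPM, against 3.01 and 4.59 CPM in male controls. The 3 female CAIA libraries were nearly equal, and the male CAIA libraries were close to them although their Ttr differed widely. The share kept in females was 26.0% (20.7% to 32.5%), with a log2 fold change of -1.92 ± 0.25 in females and -1.22 ± 0.26 in males. Pon3 lies on chromosome 6 (5220852 to 5256286, minus strand). Of its family, Pon1 had 23 counts in all, 6 in CAIA and 17 in control libraries. Pon2 was at -0.25 ± 0.08 over both sexes and did not pass (edgeR adjusted p = 0.447).

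Large2, a glycosyltransferase that extends the laminin-binding sugar chain of dystroglycan, was at 0.604, 0.593 and 0.652 CPM in the 3 female CAIA libraries, against 1.79, 2.43 and 2.59 CPM in the 3 female control libraries. In males it was at 0.355, 1.14 and 0.898 CPM in the 3 CAIA libraries, against 2.29 and 1.81 CPM in the 2 control libraries. The share kept in females was 27.0% (19.5% to 36.8%), with a log2 fold change of -1.87 ± 0.34 in females and -1.36 ± 0.37 in males. Large2 lies on chromosome 2 (92365046 to 92374869, minus strand). Of its exons 127 bases, 2.18%, overlap Pex16 on the other strand, a gene with 6449 counts in all. Whether counting used strand is not stated by any source here, and reads of that stretch then cannot be told apart. Large2 itself had 53 counts in female CAIA and 184 in female control libraries.

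Of the RNA and the proteins that act inside the cell, 2900040C04Rik, a long intergenic non-coding RNA gene with no annotated function, was at 0, 0.105 and 0 CPM in the 3 female CAIA libraries, against 2.57, 2.51 and 2.31 CPM in the 3 female control libraries. The 3 male CAIA libraries held 0, 1.37 and 0.503 CPM, against 2.33 and 2.02 CPM in the 2 male control libraries. It had 0 counts in 3 of the 6 CAIA libraries, and its 5 control libraries were nearly level. The female CAIA libraries kept 1.42% of the control level (0.290% to 4.21%), on 3 counts against 198. The log2 fold change in males was -1.80 ± 0.79. The gene lies on chromosome 14 (76251457 to 76252327, plus strand) with 459 bases of exon.

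Rbm47, an RNA-binding partner of the editing enzyme APOBEC1 that is found in many epithelia, was at 0.746, 0.627 and 0.961 CPM in the 3 female CAIA libraries, against 3.54, 4.67 and 6.13 CPM in the 3 female control libraries. Male CAIA libraries gave 0.631, 2.16 and 0.718 CPM, against 2.82 and 5.71 CPM in male controls. The 2 male controls differed more from each other than those of Npr3 or Abca4 did. The share kept in females was 16.1% (12.2% to 20.9%), with a log2 fold change of -2.61 ± 0.44 in females and -1.87 ± 0.46 in males. Rbm47 lies on chromosome 5 (66016549 to 66173118, minus strand), and 2 annotated transcripts with 8 and 14 counts in all overlap 3.85% and 1.56% of its exons.

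Wdr86, which encodes a WD-repeat protein, was at 2.06, 1.88 and 2.33 CPM in the 3 female CAIA libraries, against 5.99, 9.69 and 11.7 CPM in the 3 female control libraries. In males it was at 2.48, 6 and 3.41 CPM in the 3 CAIA libraries, against 6.84 and 11.3 CPM in the 2 control libraries. Male CAIA replicate 2 reached the lowest female control, so the groups overlapped for Wdr86 alone among the 9. The share kept in females was 22.7% (19.1% to 26.7%), with a log2 fold change of -2.12 ± 0.34 in females and -1.19 ± 0.35 in males. Wdr86 lies on chromosome 5 (24711738 to 24730727, minus strand).

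**Figure D1:**
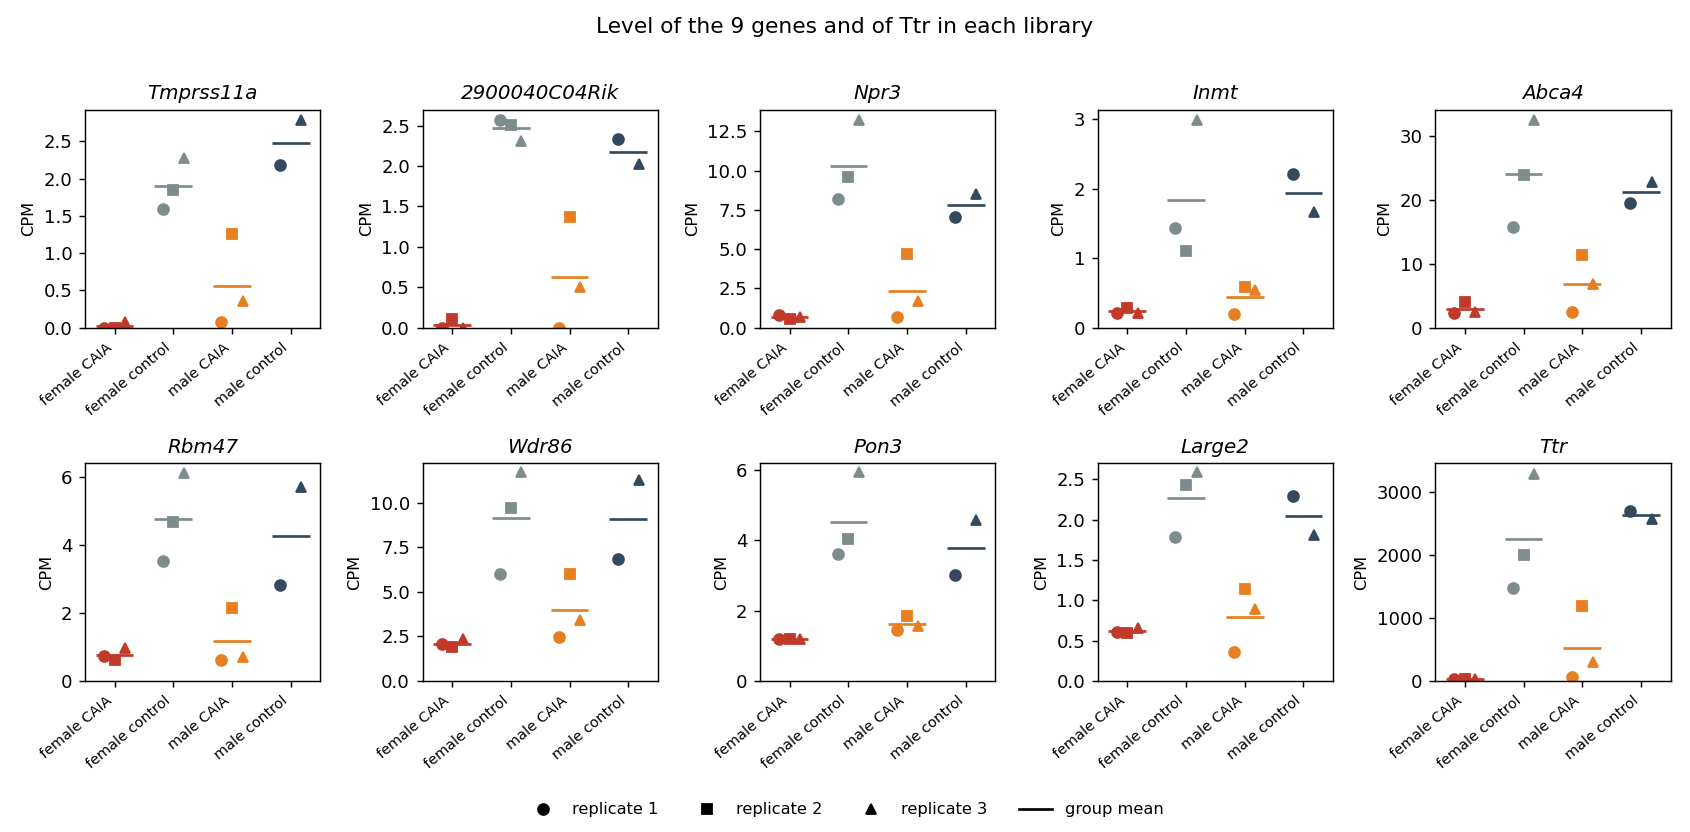
Level of each of the 9 genes and of Ttr in CPM (vertical axis, linear from 0) in each library, by group, with the group mean as a line and replicates by symbol. Female CAIA libraries lie low for every gene. In male CAIA libraries replicate 2 is the highest for each of the 10 genes, with Ttr at 1187 CPM.

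Dividing by the Ttr counts of the same library removes library size and asks whether a gene fell as far as Ttr. The 9 genes did not behave alike. Tmprss11a had 0, 0 and 2.3 counts per 1000 Ttr counts in female CAIA libraries, against 1.09, 0.925 and 0.694 in female control libraries, and 1.2, 1.06 and 1.18 in male CAIA libraries, against 0.807 and 1.08 in male control libraries. A count of 0 in female CAIA replicates 1 and 2 allows up to 3.65 and 3.87 per 1000 if the limit is set at 3 counts, and 4.50 and 4.77 by the exact 95% interval. The groups overlapped. Summed over libraries, the ratio was 1.07 (95% counting interval 0.785 to 1.43) in CAIA and 0.884 (0.785 to 0.991) in controls, and male CAIA replicate 2 gave 32 of the 46 CAIA counts. In females alone it was 0.811 (0.0982 to 2.93) in CAIA and 0.837 (0.711 to 0.980) in controls, so the female libraries leave a wide range. For 2900040C04Rik there were 0, 3.87 and 0 counts per 1000 Ttr counts in female CAIA libraries, against 1.75, 1.26 and 0.704 in female control libraries, and 0, 1.16 and 1.65 in male CAIA libraries, against 0.863 and 0.786 in male control libraries. Its summed ratio was 1.21 (0.906 to 1.59) in CAIA and 0.963 (0.860 to 1.08) in controls, again with overlapping intervals, and male CAIA replicate 2 gave 35 of the 52 CAIA counts. The mean of its ratios rests on single libraries as well, since without female CAIA replicate 2 the log2 change, CAIA over controls, was -0.93 in place of 0.05. For Tmprss11a it was -0.42 without female CAIA replicate 3, in place of 0.06. These counts do not show whether either gene fell exactly as far as Ttr. Within the female controls this ratio was lowest where Ttr was highest, since the level of the RNA was nearly the same in all 3. Intervals cover counting error only.

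Npr3 had 26.8, 20.6 and 23 counts per 1000 Ttr counts in female CAIA libraries, against 5.56, 4.8 and 4.03 in female control libraries, and 10.2, 3.93 and 5.66 in male CAIA libraries, against 2.62 and 3.31 in male control libraries. The mean ratio was 3.70 times as high in CAIA. Pon3, at the other end, had 41.4, 43.9 and 40.3 counts per 1000 Ttr counts in female CAIA libraries, against 2.46, 2.03 and 1.81 in female control libraries, and 22.3, 1.55 and 5.19 in male CAIA libraries, against 1.11 and 1.78 in male control libraries. Its mean ratio was 14.0 times as high in CAIA, and its highest values were in the 3 libraries with the least Ttr. Between them, the mean ratio in CAIA over controls was 6.35 for Inmt, 6.46 for Abca4, 11.7 for Wdr86 and 12.9 for Large2. For Rbm47 the mean ratio was 15.8 in CAIA and 1.98 in controls. Means of library ratios weight the libraries with little Ttr as much as the others, and the summed ratios differed less. Summed over libraries, Npr3 had 5.65 counts per 1000 Ttr counts in CAIA (95% counting interval 4.95 to 6.41) and 3.86 in controls (3.65 to 4.08). Pon3 had 5.39 (4.71 to 6.13) in CAIA and 1.76 (1.62 to 1.91) in controls. The summed ratio was 1.28 in CAIA and 0.786 in controls for Inmt, 18.5 and 9.53 for Abca4, 3.686 and 1.898 for Rbm47, 11.5 and 3.78 for Wdr86, and 2.71 and 0.899 for Large2. Male CAIA replicate 2 held 30265 of the 42868 Ttr counts in CAIA, so the sums mainly describe that library. Among the 9, only the Wdr86 ratios of CAIA and controls did not overlap, with all CAIA values higher. The same held for 2 of the 15 other choroid plexus markers, and no share over all genes is given. A gene with a steady level would do likewise, since Ttr was below the controls in all CAIA libraries. In male CAIA replicate 2, the CAIA library with the most Ttr, the ratio was within or near the control range for every gene. There it was 9.55 for Abca4 and 1.55 for Pon3, against 7.24 to 12.0 and 1.11 to 2.46 in controls.

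The choroid plexus markers themselves were as uneven. The mean ratio of their counts to Ttr in CAIA over controls was 0.588 for Tmem72, 1.49 for Aqp1 and 1.63 for Kcne2, which is near that of Tmprss11a (1.04) and 2900040C04Rik (1.04). It was 2.81 for Kcnj13, 5.86 for the folate receptor gene Folr1, 6.79 for Sostdc1, 12.2 for the prolactin receptor gene Prlr and 36.3 for the homeodomain gene Otx2. Inmt and Abca4 thus stood beside Folr1 and Sostdc1 by this measure, Npr3 between Kcnj13 and Folr1, and Wdr86, Pon3 and Large2 near Prlr. The size of the ratio change depends on the gene set below it. With the summed counts of the 15 other markers in place of Ttr, the log2 ratio change was -1.33 for Tmprss11a and -1.38 for 2900040C04Rik, against 0.06 and 0.05 with Ttr. It was -0.58 for Npr3, -0.12 for Inmt, 0.01 for Abca4 and 0.96 for Pon3. The sign thus turned for 4 of the 9 genes, Tmprss11a, 2900040C04Rik, Npr3 and Inmt, and Tmprss11a and 2900040C04Rik fell most against these markers. Otx2 made up 9.07% to 38.3% of that sum in CAIA and 5.28% to 7.65% in controls.

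**Figure D2:**
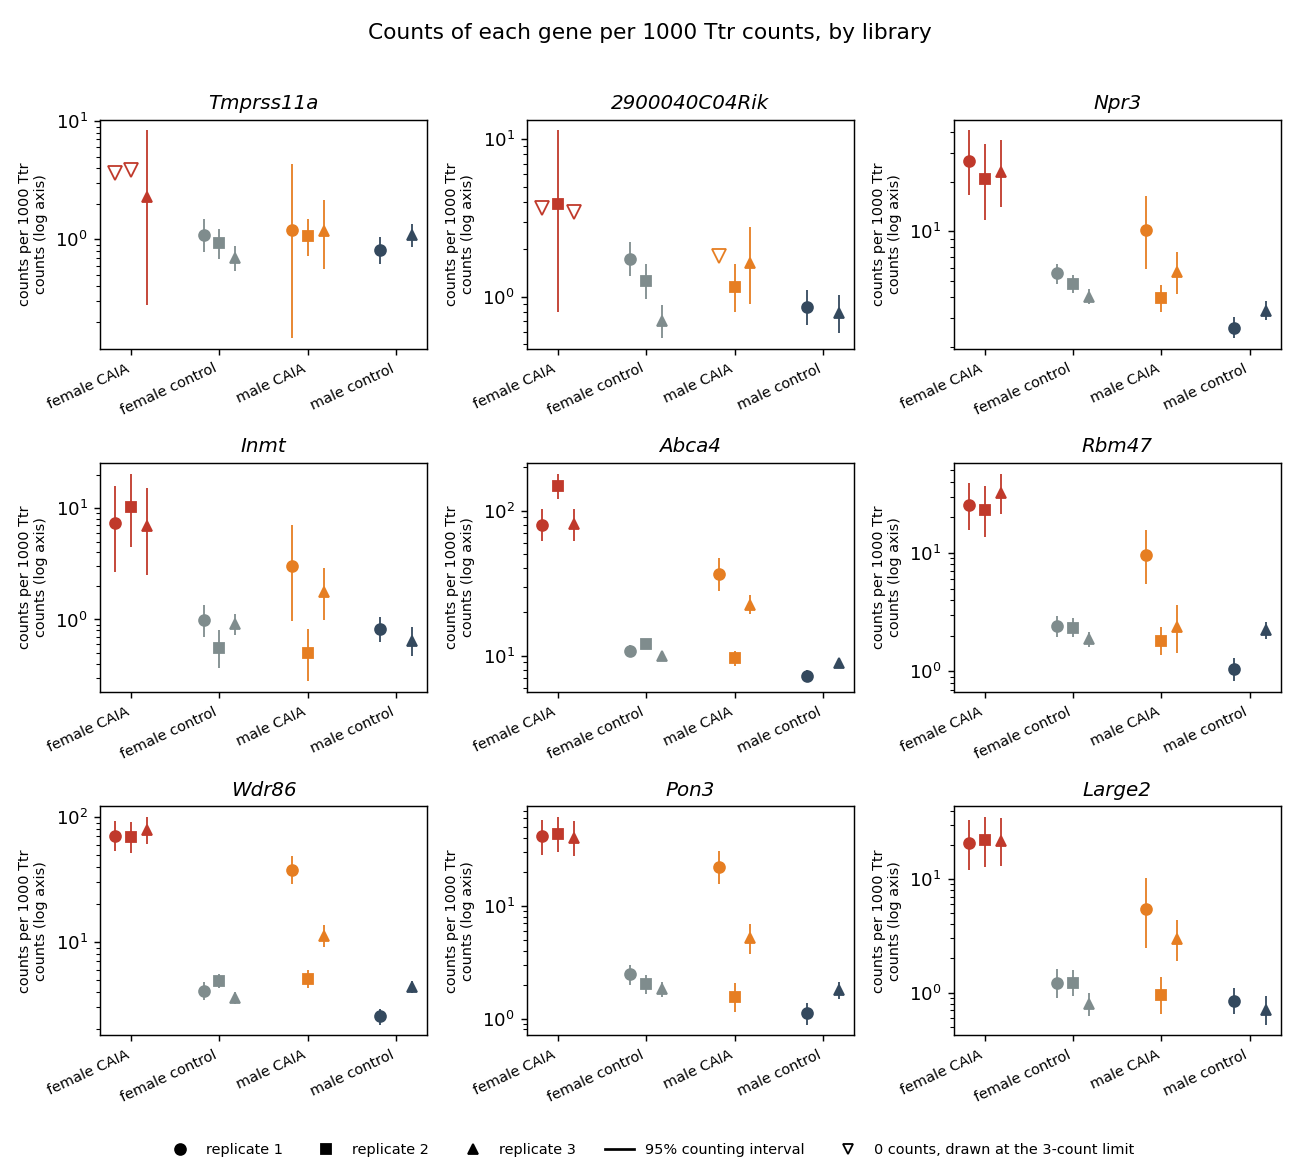
Counts of each gene per 1000 Ttr counts (vertical log axis) in each library, by group. Bars are 95% counting intervals, and open triangles mark libraries with 0 counts at the limit of 3 counts. Tmprss11a lies between 0.694 and 2.30 per 1000 and 2900040C04Rik between 0.704 and 3.87 in the libraries with any count, with wide intervals in CAIA, while the ratio of Pon3 reaches 40.3 to 43.9 in female CAIA libraries, against 1.81 to 2.46 in female controls.

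Differences between libraries of the same group gave a test that the choice of genes did not use. The log2 level of every gene was fitted on the log2 level of Ttr with the 4 group means in the model, so a slope of 1 means that a gene scales with Ttr and a slope of 0 that it does not follow it. All 9 slopes were positive, with a median of 0.47, beside 0.00 over all genes and 0.66 over the 15 choroid plexus markers. In edgeR's quasi-likelihood test adjusted over all genes, 2 of the 9 passed, where 23 genes (0.117%) had a called positive slope, and DESeq2 also called 2 of the 9. The 2 called by edgeR were Npr3 at 0.67 ± 0.07 (SE; 95% interval 0.51 to 0.83, adjusted p = 0.00134) and Abca4 at 0.55 ± 0.09 (0.36 to 0.74, adjusted p = 0.0323). Of the markers 10 of 15 passed. The calls rest on male CAIA replicates 1 and 2, which span the widest range of Ttr within a group. Without replicate 2 no gene was called, and 5 were called without replicate 1. Npr3 was then at 0.61 ± 0.13 and 0.69 ± 0.13, and Abca4 at 0.71 ± 0.14 and 0.49 ± 0.15, and none of these passed (adjusted p = 0.648, 0.197, 0.581 and 0.998). Abca4 also missed the threshold without any 1 of the 5 control libraries (adjusted p = 0.0515 to 0.127). In the 6 CAIA libraries alone Npr3 was at 0.68 ± 0.11 (adjusted p = 0.0391) and Abca4 at 0.52 ± 0.10 (adjusted p = 0.126).

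The other 7 slopes did not pass, though 6 of the 7 had an unadjusted p under 0.05, a level at which 2.68% of all genes had a positive slope. Tmprss11a was at 0.85 ± 0.18 (95% interval 0.46 to 1.23, adjusted p = 0.191) and 2900040C04Rik at 0.88 ± 0.26 (0.33 to 1.43, adjusted p = 0.998). Theirs are the intervals that hold 1 among the 9, as do 6 of the 15 marker intervals. They are also the widest of the 9, from genes with 46 and 52 counts in the 6 CAIA libraries. Holding 1 therefore does not show that either gene scales with Ttr. Rbm47 was at 0.47 ± 0.13 (0.19 to 0.75), Inmt at 0.45 ± 0.17 (0.08 to 0.82), Large2 at 0.39 ± 0.12 (0.14 to 0.64) and Wdr86 at 0.34 ± 0.09 (0.15 to 0.53). Pon3 had the lowest slope, at 0.13 ± 0.10, and its interval of -0.08 to 0.34 holds 0. The markers ran from 0.15 for Otx2 to 1.21 for Tmem72, so 8 of the 9 lay within their range and Pon3 lay just below it. That range is wide, since Otx2 kept 76.7% of its mean female control CPM in female CAIA, beside 1.27% for Ttr. Lying within it therefore does not show a choroid plexus origin. Among all genes tested, 11.7% had a larger slope than Pon3, and 0.153% to 2.93% a larger one than each of the other 8. In the 5 control libraries alone no gene was called, and 2900040C04Rik was at -0.13 ± 0.36 and Pon3 at 0.61 ± 0.33.

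**Figure D3:**
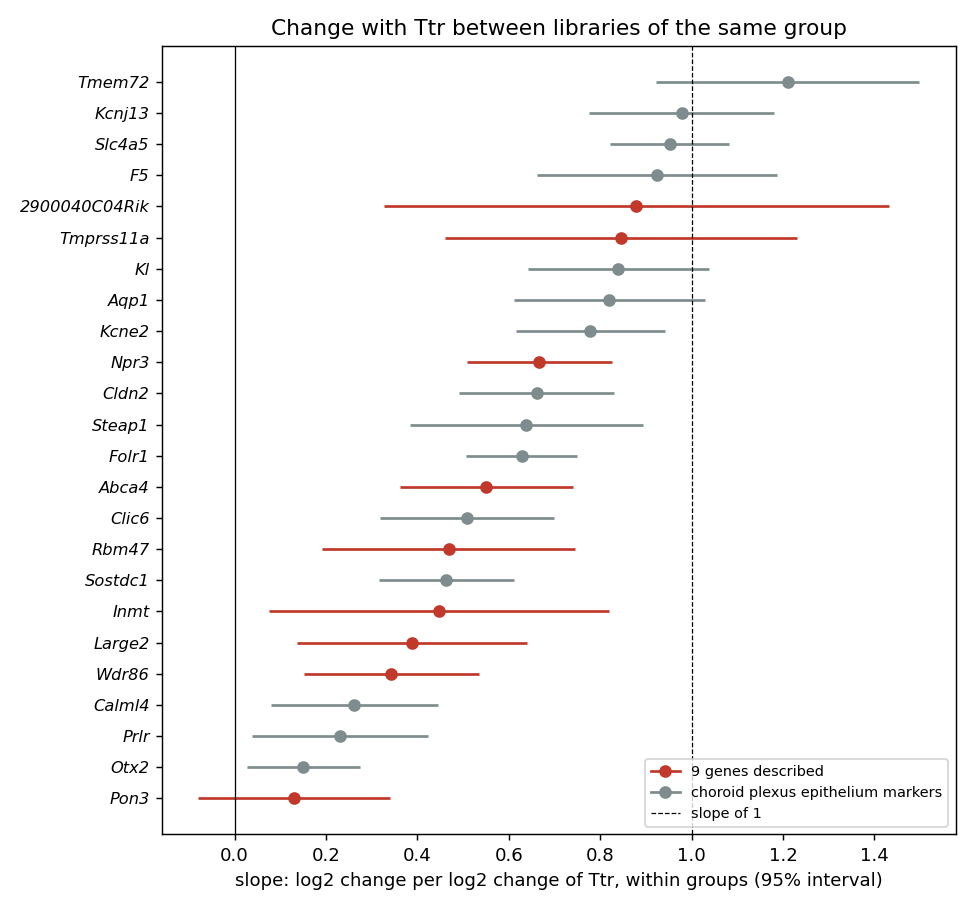
Slope of each gene on log2 Ttr within groups (horizontal axis) with its 95% interval, for the 9 genes and 15 choroid plexus markers, sorted. The dashed line marks a slope of 1, which the intervals of Tmprss11a and 2900040C04Rik hold, the widest of the 9, and the interval of Pon3 holds 0.

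The share of its level that a gene kept in female CAIA libraries and its slope on Ttr gave nearly the same order. The genes that kept least had the steepest slopes, and Pon3, Large2 and Wdr86, which kept most, had the lowest slopes. A steep slope is not a close one, since the within-group correlation with Ttr was 0.93 for Large2 and 0.88 for 2900040C04Rik. Spearman's rho was -0.92 over the 9 genes, -0.83 over the 15 markers and -0.89 over all 24. This is a description across genes that share the same libraries. The kept share and the slope are not independent measures, and no cause was tested.

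**Figure D4:**
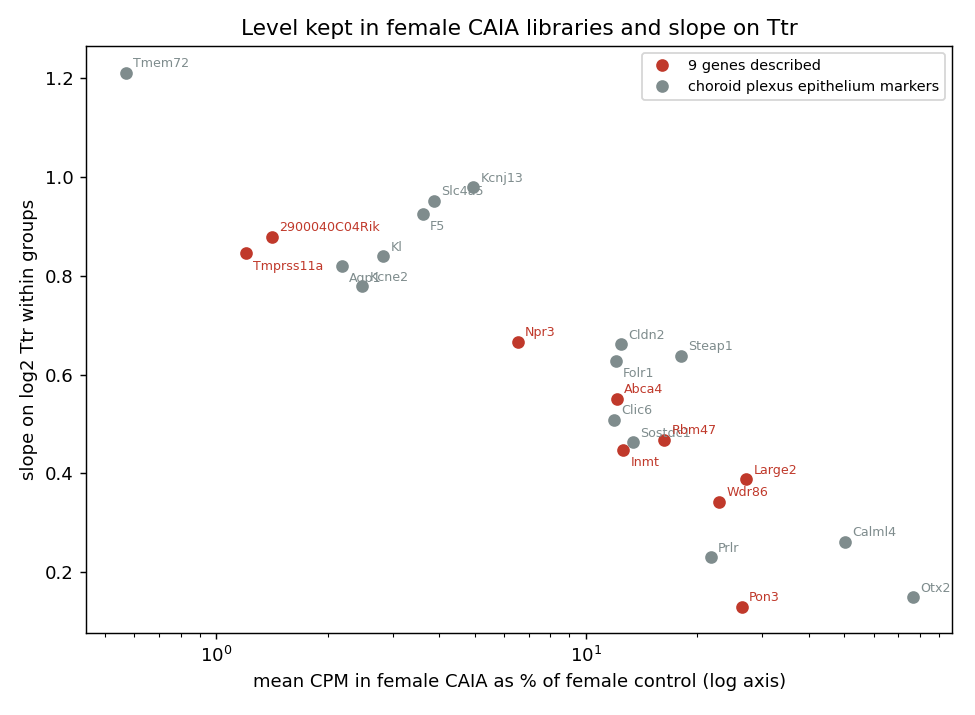
Mean CPM in female CAIA as a percentage of female control (horizontal log axis) against the slope on log2 Ttr within groups (vertical axis), for the 9 genes and 15 choroid plexus markers. Tmprss11a and 2900040C04Rik sit at the low end near Aqp1 and Kcne2, Npr3 and Abca4 in the middle, and Wdr86, Large2 and Pon3 towards Prlr.

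Likeness was measured as Pearson's r of deviations from the group means of log2 CPM over the 11 libraries, among the 15552 tested genes that averaged 1 CPM or more. Npr3 was most like the potassium channel gene Kcnj13 (r = 0.99), Slc7a6 (0.98) and Ttr (0.98), and 11 of the 16 choroid plexus markers were among its 50 most similar genes. Tmprss11a was most like Slc7a6 (0.97), Prr32 (0.96) and Mmp19 (0.96), with 10 markers among its 50. For Abca4 the nearest were the collagen gene Col1a1 (0.98), the homeodomain gene Msx1 (0.98) and the keratin gene Krt18 (0.97), with 9 markers. For 2900040C04Rik they were Foxc2, Cfap36 and Slc47a1 (0.96, 0.96 and 0.95), with 7 markers. Large2 was nearest to Ucp2, Hfe and Clk2 (0.97, 0.97 and 0.96), with 5 markers.

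Rbm47 was most like Sik1 (0.98) and Gm37963 (0.97), and Wdr86 most like Slc2a12, Lrrc29 and Gm44829 (0.97, 0.96 and 0.96). Each had 2 markers among its 50. Inmt was nearest to Zmynd10, Wdr43 and Crb2 (0.98, 0.97 and 0.97) and Pon3 to Cytip, Zbtb39 and Slc31a1 (0.98, 0.98 and 0.97), and neither had a choroid plexus marker among its 50. The correlation with Ttr itself was 0.98 for Npr3, 0.94 for Tmprss11a, 0.93 for Large2, 0.90 for Abca4, 0.88 for 2900040C04Rik, 0.81 for Wdr86, 0.78 for Rbm47, 0.75 for Inmt and 0.49 for Pon3. These values share libraries and are given with no p.

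Markers of other cell types at the border of the habenula are given beside the members' results. The 11 meningeal fibroblast markers summed to 75.8 to 110 CPM in CAIA and 89.3 to 131 CPM in controls. Over both sexes edgeR called 1 of the 11 lower, Col1a1 (-0.37 ± 0.08, adjusted p = 0.0469). DESeq2 called 3 of the 11 lower, and 4 were lower at an unadjusted edgeR p under 0.05. No slope of the 11 on Ttr passed in edgeR or DESeq2, and 5 had an unadjusted p under 0.05. With the meningeal level added to the Ttr model, the members' slopes were between 0.02 for Pon3 and 0.80 for Tmprss11a, and none passed. With the pineal level added they were between 0.13 and 0.87, and Npr3 and Abca4 passed. No share over all genes is given for the pineal model, so nothing is read from these calls. The 7 endothelial markers summed to 230 to 269 CPM in CAIA and 249 to 283 CPM in controls, and the 6 pericyte markers to 187 to 209 CPM and 197 to 231 CPM. None of the endothelial, pericyte, pineal or ependymal markers passed over both sexes in edgeR or DESeq2, and 1 pericyte, 1 pineal and 1 ependymal marker had an unadjusted p under 0.05. Of the pineal markers Tph1, Asmt, Crx and Lhx4 were at 0 in 2, 4, 6 and 3 of the 11 libraries, and Gngt1 was too low to be tested, while the other markers of these cell types were detected in every library. Their part in the members' levels was not tested between groups.

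Relatives and pathway partners of the 9 genes were examined in the same contrast over both sexes. Spint2, a Kunitz inhibitor of membrane-anchored serine proteases, was lower at -0.55 ± 0.09 (edgeR adjusted p = 0.0116), 1 of the 7 tested proteases and inhibitors. The median log2 fold change of these 7 was -0.17, with 5 of 7 negative. Among 11 tested genes of retinoid handling, Rdh5 was at -0.58 ± 0.14, the retinol-uptake receptor Stra6 at -0.83 ± 0.21 and Rdh12 at -0.47 ± 0.17, and none of these 3 passed (adjusted p = 0.0924, 0.151 and 0.55). The retinoid list shares Aldh1a2 and Crabp2 with the meningeal markers. Choroid plexus markers also fell in this contrast, and the part of those cells in the fall of Spint2 was not tested.

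No gene was called by edgeR in either direction in 7 other lists. They are 5 genes of the natriuretic peptide system, 4 methyltransferases and amine synthesis genes, 10 ABC transporters of subfamily A, 4 RNA-binding relatives, Pon2, 9 genes of dystroglycan glycosylation and 6 WD-repeat genes. DESeq2 called 1 WD-repeat gene lower and 0 of the others. At an unadjusted p under 0.05, 1 gene was lower in each of the natriuretic, ABC transporter, paraoxonase, dystroglycan and WD-repeat lists and 0 in the other 2. Npr2, the signalling receptor for C-type natriuretic peptide, was at -0.11 ± 0.05 (adjusted p = 0.787), beside -2.83 ± 0.39 for Npr3. Abca1 was at 0.18 ± 0.09 (adjusted p = 0.792) beside -2.34 ± 0.38 for Abca4. Apobec1 was at -0.14 ± 0.22 (adjusted p = 0.966) beside -2.24 ± 0.32 for its partner Rbm47. No tested relative had a called slope on Ttr in edgeR or DESeq2, and at an unadjusted p under 0.05 1 protease or inhibitor, 4 retinoid genes and 2 WD-repeat genes had a positive one.

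Female controls did not differ detectably from male controls in any of the 9 genes. In edgeR 0 of the 9 passed, as against 7 of all genes (0.0357%), 0 of the 9 had an unadjusted p under 0.05 (6.66% of all genes had) and DESeq2 called 0. The log2 difference, female over male, was between -0.38 ± 0.58 for Tmprss11a and 0.41 ± 0.51 for Npr3. With 3 libraries against 2, the 95% interval for Npr3 ran from -0.75 to 1.56, so a difference of that size is not shown to be absent.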

How the data were processed

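The deposited table holds whole-number read counts per gene in 11 libraries, with no normalization by the authors. Per the submitters' processing notes, the authors' tools were featureCounts 1.5.0-p3 and HISAT2 2.0.5 on GRCm38, with cutadapt 1.9.1. The notes name no strand setting or annotation release. The 9 genes, the marker lists and the lists of relatives were chosen with earlier results of these data known. Named genes were the 9, up to 4 genes with the lowest p per list described and the 3 most similar genes. A few genes that this rule names are not reported here. Additional markers and relatives named for comparison were chosen after their values were seen.

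Counts were filtered with filterByExpr (19619 of 54532 genes left), scaled with TMM and fitted with edgeR 4.0.16 in R 4.3.3 (robust glmQLFit, glmQLFTest) as 4 group means over all libraries, so that the group of 2 shares the spread of the others. The slope fit added log2 Ttr CPM (prior count 2). The Benjamini-Hochberg adjustment ran over all tested genes, at 0.05. SE is the estimate divided by the square root of F. Ratios to Ttr used raw counts, with exact 95% binomial intervals. RPKM used CPM and union exon lengths from GENCODE M21, as did coordinates (54495 identifiers matched), and that release may differ from the authors'. Library pairs of a group differed beyond sampling noise (chi-square divided by its degrees of freedom was 7.09 to 30.8). The fits were tested on simulated counts. Alternatives were DESeq2 1.42.0, its size factors, other filters, a replicate block, other levels in the slope model, single sexes or treatments, and each library left out. Figures were drawn with matplotlib 3.10.9.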

Additional observations from a re-analysis of the deposited data

Results flagged for a closer look

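Rbm47 in male CAIA replicate 2 stood apart from the other 5 CAIA libraries, at 1.16 log2 CPM, where the lowest was at -0.51. Its gap to the next library was 0.66 of the whole CAIA range. Ttr was also highest in that library, at 1187 CPM. This was the single flag among 36 sets of values examined for the 9 genes, and chance flags about 1 in 20. The cause was not tested.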

How the results depend on the processing

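Over both sexes 113 genes were called lower, 50 in females, 0 in males, 23 with a positive Ttr slope, and 7 between female and male controls. DESeq2 called 196, 168, 33, 37 and 17 of these kinds, and edgeR with no count filter 291, 405, 123, 38 and 396. Fitting 1 sex alone gave 105 in females and 2 in males. Leaving out single libraries gave 40 to 165 over both sexes, 0 to 103 in females, 0 to 36 in males, 0 to 22 slopes and 6 to 42 between control sexes. The lowest counts came without female CAIA replicate 3 over both sexes, without any 1 female CAIA library in females (0 each) and, for slopes, when male CAIA replicate 2 was left out. Leaving out replicate 3 of the female controls left 1 call in females. The highest came without male CAIA replicate 2 in the 3 treatment contrasts and without male control replicate 3 between control sexes. Slope calls were 13 with the other choroid plexus markers in place of Ttr, 1 with the meningeal level added and 0 in controls alone. There the slope of 2900040C04Rik turned to -0.13. Slopes of Tmprss11a, 2900040C04Rik and Inmt in the CAIA libraries alone could not be fitted, since these genes did not pass the count filter there. The cause of these changes was not tested.

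With a replicate block within each sex, 125 genes were called over both sexes, 82 in females, 31 in males and 0 slopes, and the slopes of Rbm47 and Pon3 turned to -0.21 and -0.048. The labels give same-numbered libraries no link beyond the number. The correlation of their deviations was between -0.21 and 0.03, which cannot settle whether they share a pairing or a batch. A block was not fitted between female and male controls, which differ in sex.

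The log2 change of the ratio to Ttr, CAIA over controls, was 0.06 for Tmprss11a, 0.05 for 2900040C04Rik, 1.89 for Npr3, 2.67 for Inmt, 2.69 for Abca4, 3.00 for Rbm47, 3.55 for Wdr86, 3.81 for Pon3 and 3.69 for Large2. With the sum of the other markers as reference it was -1.33 for Tmprss11a, -1.38 for 2900040C04Rik, -0.58 for Npr3, -0.12 for Inmt, 0.0137 for Abca4, 0.14 for Rbm47, 0.81 for Wdr86, 0.96 for Pon3 and 0.79 for Large2, so the signs of Tmprss11a, 2900040C04Rik, Npr3 and Inmt turned. With that sum without Otx2, chosen after seeing the data, it was -1.09 for Tmprss11a, -1.16 for 2900040C04Rik, -0.20 for Npr3, 0.30 for Inmt, 0.42 for Abca4, 0.59 for Rbm47, 1.24 for Wdr86, 1.42 for Pon3 and 1.24 for Large2. Leaving out single libraries gave -0.42 to 0.32 for Tmprss11a, -0.93 to 0.32 for 2900040C04Rik, 1.64 to 2.09 for Npr3, 2.32 to 2.91 for Inmt, 2.24 to 2.92 for Abca4, 2.66 to 3.24 for Rbm47, 3.32 to 3.79 for Wdr86, 3.59 to 4.06 for Pon3 and 3.44 to 3.93 for Large2. Fold changes of the 9 genes kept their direction under all alternatives run. Low counts limit Tmprss11a and 2900040C04Rik, with 46 and 52 counts in the 6 CAIA libraries.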
